A study of Mus musculus with 8 samples.

Results

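Transfer RNA (tRNA) rows for methionine, glutamine, proline, asparagine, cysteine, tryptophan, threonine, isoleucine, phenylalanine and tyrosine were followed in small RNA libraries of mouse sperm. A row belonged if it was a structural RNA feature of the deposited count table whose tRNA name began with 1 of these 10 amino acids. The rule took 305 of the 1074 tRNA rows in a table of 1010917 rows. Rows with the same counts in all 8 libraries were counted once, which left 229 distinct rows under 22 tRNA names. Many of these still differed by only a few counts, and grouping rows of a name that lay within 5% or 3 counts of each other in every library gave 134 near-copy groups.

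The study sequenced 8 libraries of spermatozoa, all labelled C57BL/6J. The EtOH group (labelled EtOH-Cessation, 4 libraries) came from ethanol treatment followed by its withdrawal. The Control group (Control-Cessation, 4 libraries) is its counterpart without ethanol and carries the same label of cessation. The labels used here give no dose, age or duration and do not say that replicates are separate animals, so p-values measure only the spread between libraries. The sample labels say mature sperm, whereas the series text speaks of the caput, the first segment of the epididymis. The comparison asks whether sperm small RNAs still differ after ethanol has been stopped.

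A tRNA carries 1 amino acid to the ribosome and reads its codon through an anticodon. Methionine has separate tRNAs to start a protein and to extend it, and the rows named Met-i belong to the initiator. In sperm most tRNA-derived reads are reported to come from fragments cut at or near the anticodon loop. Sperm gain such fragments on their way through the epididymis. Ribonucleases of the angiogenin type can make such cuts. The enzyme was not examined here, and where the reads lie within each tRNA was not available. In the row names the letters after the amino acid match its codons, with Y for C or T, and a trailing _ is printed here as the table has it, its meaning not being given.

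Library totals were 3116421 to 6805989 counts in the EtOH libraries and 4210785 to 4768713 in the Control libraries. Sperm and spermatid markers summed to 322 to 474 CPM (counts-per-million of the library total) in EtOH libraries and to 518 to 624 CPM in Control libraries. Markers of the epididymal epithelium, the secretory cells that line the duct, summed to 722 to 17840 CPM in EtOH libraries and to 367 to 507 CPM in Control libraries. EtOH replicate 2 was the library at 17840 CPM, and it also had the lowest total. Most of that sum came from Crisp1 at 12220 CPM, Cd52 at 3472 and Adam7 at 1922. The other listed genes with counts ran from 0 CPM (Lcn8, Cst11 and Defb15) to 116 CPM (Npc2) in that library. Leukocyte markers summed to 4.70 to 20.9 CPM in EtOH libraries and to 7.11 to 16.2 CPM in Control libraries. Red blood cell markers summed to 1.62 to 17.7 CPM in EtOH libraries and to 15.6 to 32.5 CPM in Control libraries, and general epithelial markers to 54.4 to 573 CPM in EtOH libraries and to 17.4 to 44.9 CPM in Control libraries. The part of these markers in the tRNA values was not tested. In bulk RNA, fewer cells of a type and less RNA per cell cannot be told apart.

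The 229 distinct rows held 1.94%, 1.36%, 2.04% and 2.89% of the counts in EtOH replicates 1 to 4, and 2.21%, 2.60%, 2.11% and 1.75% in Control replicates 1 to 4. The means were 2.05% ± 0.630 in EtOH libraries and 2.17% ± 0.351 in Control libraries (SD, n = 4 each). EtOH replicate 4 was the highest library and EtOH replicate 2 the lowest, so the EtOH values enclosed the Control values. All distinct tRNA rows together held 44.2% of the counts in EtOH replicate 4, against 22.3% to 28.8% in the other EtOH libraries and 25.1% to 30.1% in Control libraries. The 10 amino acids studied here made up 7.01% ± 1.50 of distinct tRNA counts in EtOH libraries and 7.98% ± 1.38 in Control libraries (SD, n = 4 each).

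Summed over distinct rows, cysteine and methionine held most of these counts. Cysteine rows were 43.8% ± 5.02 of the 10 amino acids in EtOH libraries and 39.3% ± 4.21 in Control libraries. Methionine rows were 27.3% ± 2.15 in EtOH libraries and 29.8% ± 2.64 in Control libraries (SD, n = 4 each). Tyrosine was at the other end, at 0.701% ± 0.233 in EtOH libraries and 0.511% ± 0.0817 in Control libraries. These sums count each near-copy, and how far copies share reads is not given. The 40 cysteine rows formed 18 near-copy groups and the 31 methionine rows formed 20. By single row, tRNA-Gln-CAA__copy5 was the most abundant, at a mean of 1789 scaled CPM (defined below) over the 8 libraries. The means were 1229 for tRNA-Cys-TGY_copy8 and 822 for tRNA-Met-i_copy5.

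**Figure D1:**
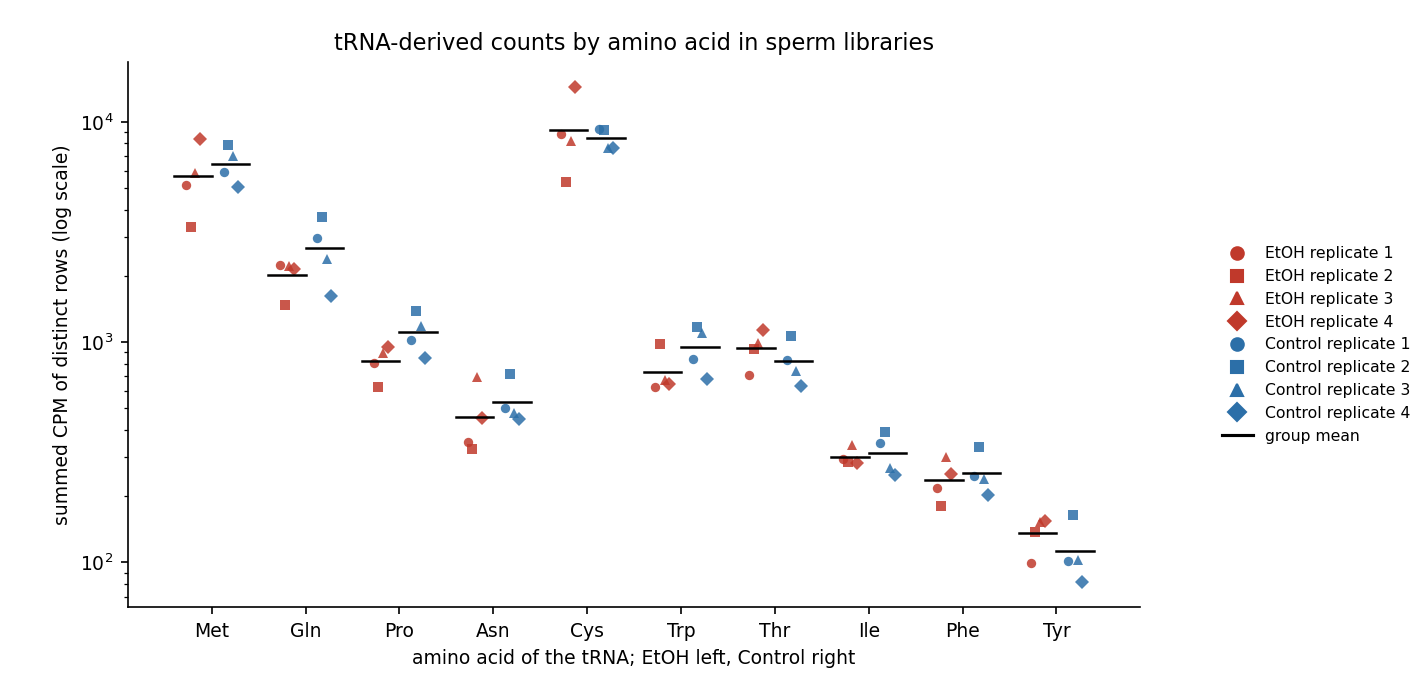
Summed CPM of the library total (log axis) of the distinct rows of each amino acid, with 1 point per library, EtOH left of Control, and a bar at each group mean. EtOH and Control points overlap for each of the 10 amino acids, cysteine lies highest and tyrosine lowest.

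No row of the 10 amino acids passed the edgeR quasi-likelihood test at an adjusted p of 0.05. Of the 229 distinct rows, 151 in 91 near-copy groups had enough counts to be tested, and 0 were called higher and 0 lower. Over all 10234 features tested, 0.0489% were called higher in EtOH libraries and 0.137% lower. At an unadjusted p below 0.05, 6 tested rows had higher and 2 had lower values in EtOH libraries, and these 8 rows formed 5 near-copy groups. The same unadjusted rule took 17.9% of all features as higher and 9.15% as lower. DESeq2 called 5 rows higher, the tRNA-Met__copy20 pair and 3 rows of the tRNA-Thr-ACY_copy1 group, where it called 13.5% of all features higher and 4.05% lower. Limma voom with sample weights called 2 rows of 1 group higher, against 4.06% of all features higher and 2.34% lower.

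With the rows of a tRNA name summed, 21 of the 22 names could be tested and 0 were called in edgeR, where 0.0407% of the features of that table were called higher and 0.132% lower. With no adjustment, 1 name was higher and 1 lower at a p below 0.05, against 18% and 9.22% of the features. No name had groups without overlap, a state that 7.42% of the features showed as higher and 7.68% as lower in EtOH libraries.

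The fitted log2 fold changes (EtOH over Control) of the 151 rows had a median of -0.29, with 34 above 0 and 117 below. The median was -0.12 over the 228 other distinct tRNA rows tested, with 81 above 0 and 147 below. Over all features it was -0.09, with 4582 above 0 and 5652 below. With 1 row per near-copy group the median was -0.25, with 27 above 0 and 64 below. These counts depend on the scaling between libraries. With library size alone the median of the 151 rows was -0.03, with 73 above 0 and 78 below, and the median of all features was 0.18. With median-of-ratios scaling the rows had a median of -0.21 and all features a median close to 0. Under each of the 3 scalings the median of the rows lay below that of all features. A change of scaling shifts all features nearly alike, so the 3 scalings are not separate checks of that order.

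In 4 rows of 2 near-copy groups every EtOH library lay above every Control library, against 7.34% of all features. In 5 rows of 2 near-copy groups every EtOH library lay below every Control library, against 7.81% of all features. The 4 groups are tRNA-Met__copy20, tRNA-Thr-ACY_copy1, tRNA-Pro-CCA_copy6 and tRNA-Trp-TGG_copy4. For single rows and tRNA names the CPM below use library sizes corrected with trimmed means of M values (scaled CPM), and sums over an amino acid are CPM of the library total. The assignment of reads between near-identical copies is not given, so a value is uncertain for any single copy.

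Among methionine rows, the initiator name Met-i held most methionine counts, at 5425 ± 2736 scaled CPM in EtOH libraries and 7354 ± 1660 in Control libraries (SD over 4 libraries each; log2 fold change -0.44 ± 0.41 SE, adjusted p = 0.541). Its most abundant row, tRNA-Met-i_copy5, was at 624, 350, 657 and 1159 scaled CPM in EtOH libraries and at 819, 1164, 1072 and 734 in Control libraries. Its lowest value was that of EtOH replicate 2, and EtOH replicate 4 reached the top of the Control range. The initiator row with the lowest p among those below 0, tRNA-Met-i_copy18, averaged 213 ± 104 scaled CPM in EtOH libraries and 339 ± 109 in Control libraries, with overlapping groups (SD, n = 4 each, log2 fold change -0.67, adjusted p = 0.358).

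The name Met_ had a smaller fitted change, at 957 ± 349 scaled CPM in EtOH libraries and 1045 ± 498 in Control libraries (SD, n = 4 each, log2 fold change -0.13, adjusted p = 0.899). The third methionine name, with no suffix, was far smaller, at 51.5 ± 12.6 scaled CPM in EtOH libraries and 47.8 ± 19.7 in Control libraries. Within Met_ a single pair of near-copies, tRNA-Met__copy20 and tRNA-Met__copy25, had the highest fitted changes. The tRNA-Met__copy25 row was at 36.4, 24.5, 35.9 and 66.6 scaled CPM in EtOH libraries and at 8.18, 15.3, 10.1 and 6.88 in Control libraries. Each EtOH library lay above each Control library. The means were 40.8 ± 18.0 scaled CPM in EtOH libraries and 10.1 ± 3.71 in Control libraries (SD, n = 4 each), a log2 fold change of 2.01 ± 0.44 (SE), the largest among the tested rows.

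The edgeR test of tRNA-Met__copy25 missed the threshold, with an adjusted p of 0.0525. The Benjamini-Hochberg adjustment gave the same value to exons of Wars, Crisp1, Cd52, Adam7 and Krt8. Their edgeR p-values reached 0.00208, against 0.000533 for this row, so the adjusted value is not particular to it. Leaving out 1 EtOH library changed the call of tRNA-Met__copy25. The adjusted p was 0.0498 without EtOH replicate 1, 0.00881 without EtOH replicate 2 and 0.0127 without EtOH replicate 3, and it was 0.0814 without EtOH replicate 4. Without EtOH replicates 1, 2 and 3 in turn, 2.84%, 2.36% and 16.5% of all features were called higher, against 0.0489% with all libraries. Across all 18 alternatives the log2 fold change of this row stayed between 1.45 and 2.47, and the row was called in 8 of them, with adjusted p-values from 2.51e-05 to 0.134 over the 18. With no filter on low counts, where it was called, 0.169% of all features were called higher, and in a fit of tRNA features alone 0.423% of the features were, which was this pair itself.

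The most abundant row of the same name, tRNA-Met__copy15, had a fitted change below 0. It was at 318, 248, 601 and 345 scaled CPM in EtOH libraries and at 397, 758, 351 and 291 in Control libraries (log2 fold change -0.25, adjusted p = 0.778). A ratio of rows within a library needs no scaling between libraries. The ratio of tRNA-Met__copy20 to tRNA-Met__copy15 was chosen after their fold changes were seen, so it is no separate support for them. The tRNA-Met__copy20 row was 11.4%, 9.89%, 5.97% and 19.3% of tRNA-Met__copy15 in EtOH libraries. In Control libraries it was 2.12%, 2.10%, 2.88% and 2.36%. The ratio of the initiator row tRNA-Met-i_copy5 to tRNA-Met__copy15 overlapped between groups, at 1.09 to 3.36 in EtOH libraries and 1.54 to 3.05 in Control libraries.

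**Figure D2:**
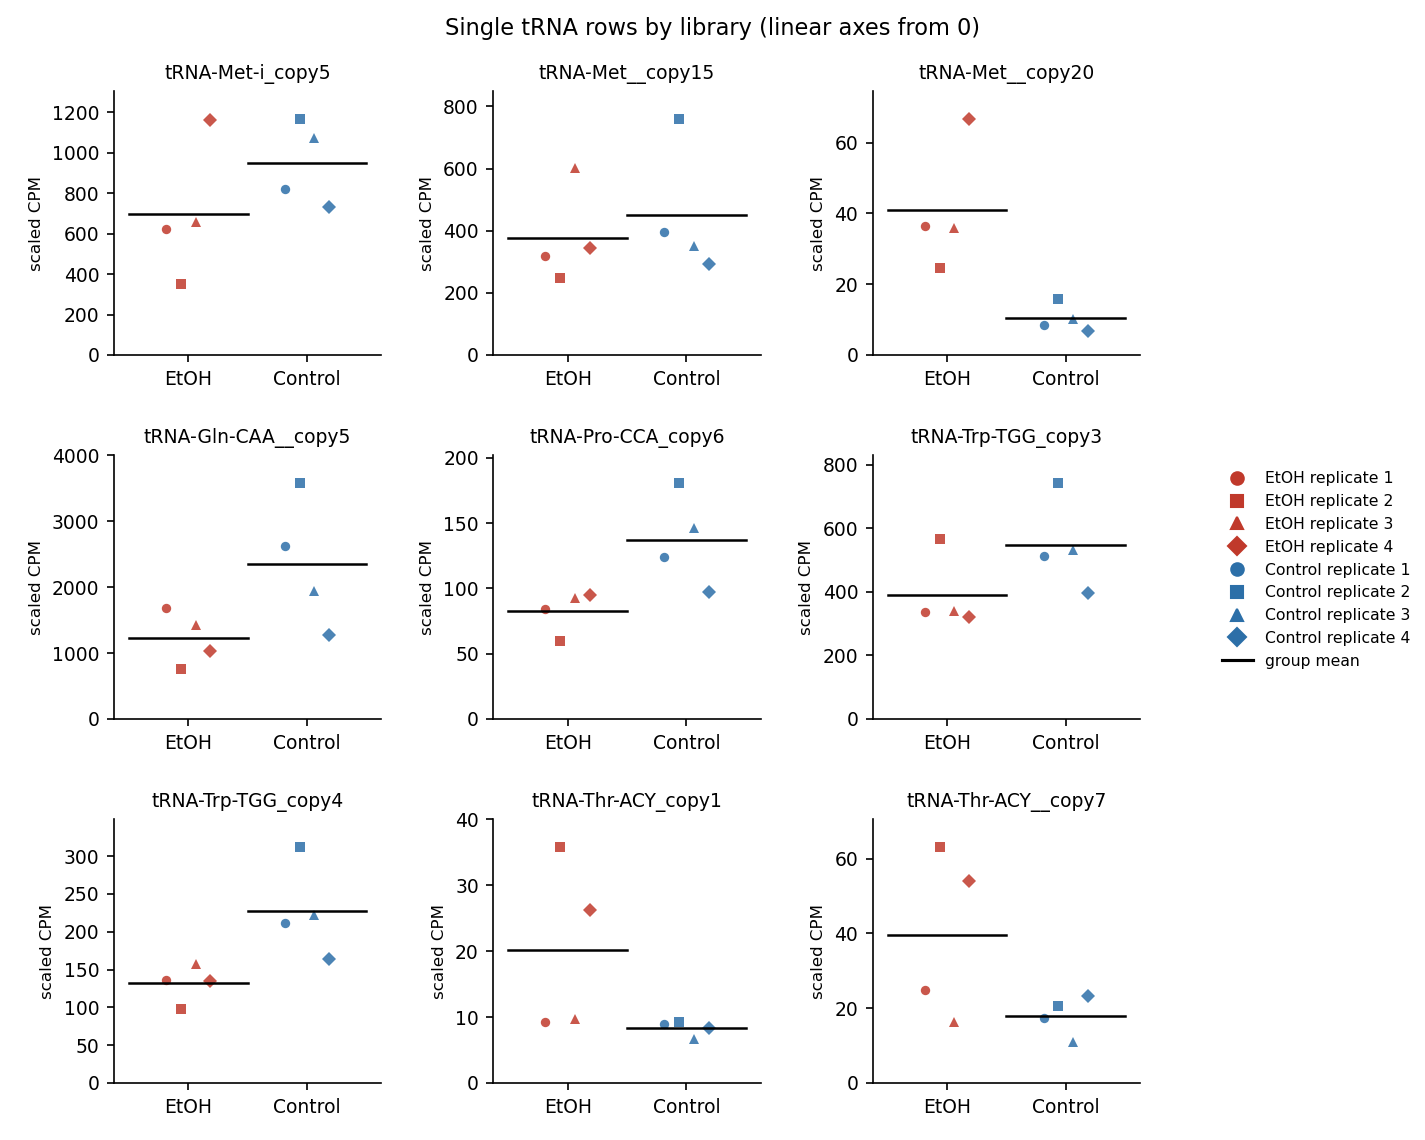
Scaled CPM of 9 single tRNA rows in each library (linear axes from 0), EtOH left of Control, with a bar at each group mean. The EtOH points of tRNA-Met__copy20 lie above the Control points, those of tRNA-Pro-CCA_copy6 and tRNA-Trp-TGG_copy4 lie below, and in tRNA-Thr-ACY_copy1 EtOH replicates 2 and 4 stand apart.

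Glutamine rows summed to 2237, 1472, 2225 and 2142 CPM in EtOH libraries and to 2987, 3713, 2376 and 1624 CPM in Control libraries. EtOH replicate 2 lay below the other EtOH libraries, and Control replicate 4 fell inside the EtOH range. A single row, tRNA-Gln-CAA__copy5, held 43.7% to 76.6% of the glutamine counts of a library. It was at 1684, 756, 1420 and 1029 scaled CPM in EtOH libraries and at 2629, 3574, 1941 and 1282 in Control libraries. The groups overlapped through Control replicate 4, the lowest Control library (log2 fold change -0.95 ± 0.41 SE, adjusted p = 0.163).

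The other glutamine names had fitted changes near 0. The name Gln-CAA averaged 483 ± 202 scaled CPM in EtOH libraries and 514 ± 146 in Control libraries, and Gln-CAG averaged 449 ± 175 in EtOH libraries and 446 ± 136 in Control libraries (SD, n = 4 each). Over the 15 tested glutamine rows 8 fold changes were above 0 and 7 below, with a median close to 0. The highest fitted change, 0.43 on the log2 scale in tRNA-Gln-CAA_copy4 (adjusted p = 0.641), came with 104 scaled CPM in EtOH replicate 4, against 21.5 to 38.2 in the other EtOH libraries and 25.6 to 44.1 in Control libraries. It was -0.23 without EtOH replicate 4. The count ratio of tRNA-Gln-CAA__copy5 to tRNA-Gln-CAA_copy7 was 15.4, 8.91, 11.1 and 5.09 in EtOH libraries and 20.3, 18.1, 13.0 and 12.3 in Control libraries, with EtOH replicate 1 inside the Control range.

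Proline tRNA is the primer from which murine leukemia viruses start reverse transcription. All 17 tested proline rows, in 8 near-copy groups, had fold changes below 0, with a median of -0.70. The 3 proline names lay close together. Pro-CCA averaged 493 ± 118 scaled CPM in EtOH libraries and 779 ± 208 in Control libraries, a log2 fold change of -0.66. Pro-CCG averaged 175 ± 32.6 scaled CPM in EtOH libraries and 276 ± 76.0 in Control libraries, and Pro-CCY averaged 246 ± 70.7 in EtOH libraries and 397 ± 105 in Control libraries (SD, n = 4 each). Their log2 fold changes were -0.66 and -0.69, and the adjusted p-values of the 3 names were 0.270, 0.272 and 0.268.

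The row with the lowest p, tRNA-Pro-CCA_copy6, was at 83.9, 59.7, 92.8 and 95.3 scaled CPM in EtOH libraries and at 124, 180, 146 and 97.0 in Control libraries. The groups did not overlap, but EtOH replicate 4 and Control replicate 4 nearly met (log2 fold change -0.72 ± 0.36 SE, adjusted p = 0.221). Its 3 near-copies had fold changes of the same size. The most abundant proline row, tRNA-Pro-CCA_copy7, averaged 117 ± 39.2 scaled CPM in EtOH libraries and 160 ± 41.7 in Control libraries, with overlap (SD, n = 4 each, adjusted p = 0.490). The median of the tested proline rows was below 0 under all 18 alternatives, between -1.07 and -0.31.

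A rare proline row, tRNA-Pro-CCA_copy4, was called lower without EtOH replicate 3, with a log2 fold change of -2.20 and an adjusted p of 0.0274, where 3.63% of all features were called lower. It was also called lower with EtOH replicates 1 and 2 alone (identifiers PO_M), at -3.20 and an adjusted p of 0.0086, where 2.69% of all features were called lower. With all libraries its fold change was -1.09 (adjusted p = 0.326). It was at 0.780, 0.909, 8.18 and 3.09 scaled CPM in EtOH libraries and at 3.96, 14.7, 5.62 and 4.42 in Control libraries, so EtOH replicate 3 was the EtOH library inside the Control range. This row was chosen after its values were seen.

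Tryptophan has a single codon, TGG, and all 7 distinct tryptophan rows, in 6 near-copy groups, were tested. The rows each had a fold change below 0, with a median of -0.75. Summed, they were at 625, 977, 676 and 648 CPM in EtOH libraries and at 843, 1169, 1101 and 681 CPM in Control libraries. EtOH replicate 2 was the high EtOH library, and the Control values began at 681 CPM. The summed name averaged 800 ± 121 scaled CPM in EtOH libraries and 1241 ± 361 in Control libraries (SD over 4 libraries each; log2 fold change -0.63 ± 0.36 SE, adjusted p = 0.274).

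The row tRNA-Trp-TGG_copy4 was at 136, 98.4, 157 and 135 scaled CPM in EtOH libraries and at 211, 311, 223 and 164 in Control libraries. Each EtOH library lay below each Control library (log2 fold change -0.78 ± 0.36 SE, adjusted p = 0.179). The most abundant row, tRNA-Trp-TGG_copy3, was at 337, 566, 341 and 321 scaled CPM in EtOH libraries and at 515, 742, 534 and 398 in Control libraries (log2 fold change -0.48, adjusted p = 0.428). In 7 of the 8 libraries these rows stood in nearly the same ratio. Counts of tRNA-Trp-TGG_copy3 were 2.48, 5.75, 2.17 and 2.38 times those of tRNA-Trp-TGG_copy4 in EtOH libraries and 2.44, 2.38, 2.40 and 2.43 times in Control libraries. EtOH replicate 2 was the exception, with tRNA-Trp-TGG_copy4 at its lowest and tRNA-Trp-TGG_copy3 at its highest among EtOH libraries. That library also had the highest sum of epididymal markers, whose part in this ratio was not tested.

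**Figure D3:**
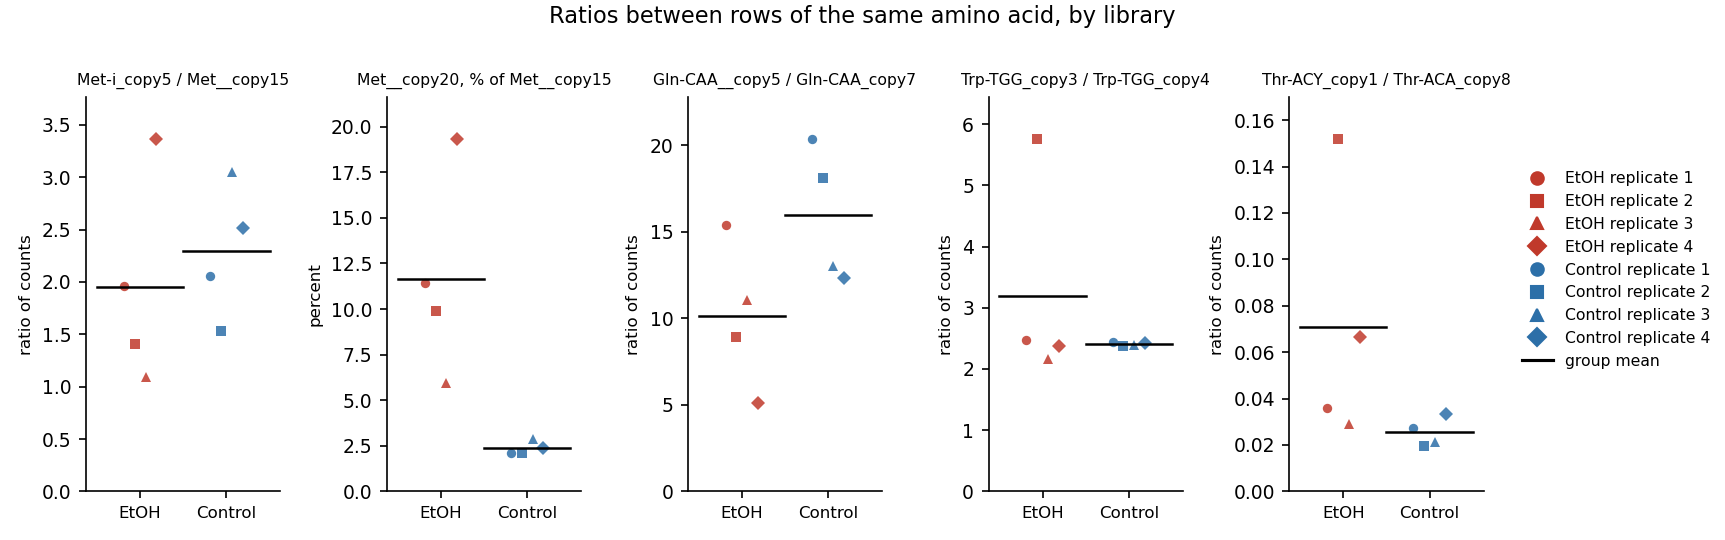
Ratios of the counts of row pairs of the same amino acid in each library (linear axes from 0), EtOH left of Control, with a bar at each group mean. The row pairs were chosen after values were seen. The Met panel in percent separates the groups, and in the Trp panel only EtOH replicate 2 departs from the other 7 libraries.

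Threonine rows summed to 708, 930, 994 and 1141 CPM in EtOH libraries and to 833, 1067, 739 and 633 CPM in Control libraries, with wide overlap. The threonine names had unequal fitted changes. Thr-ACA, the most abundant, averaged 801 ± 205 scaled CPM in EtOH libraries and 876 ± 251 in Control libraries (log2 fold change -0.13, adjusted p = 0.884). Thr-ACG averaged 113 ± 44.6 scaled CPM in EtOH libraries and 126 ± 43.8 in Control libraries, and Thr-ACG_ averaged 7.63 ± 2.57 in EtOH libraries and 8.11 ± 3.23 in Control libraries (SD, n = 4 each).

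The names for the codons ACC and ACT had higher values in some EtOH libraries. Thr-ACY was at 29.9, 116, 33.6 and 88.5 scaled CPM in EtOH libraries and at 30.9, 33.4, 23.0 and 28.3 in Control libraries. EtOH replicates 2 and 4 stood far above the Controls, whereas replicates 1 and 3 lay near their upper end (log2 fold change 1.21 ± 0.49 SE, adjusted p = 0.132). This was 1 of 2 names among the 21 tested with an unadjusted p below 0.05, Gln-CAA_ being the other. Thr-ACY_ had the same pattern, at 35.5, 89.0, 29.8 and 85.5 scaled CPM in EtOH libraries and at 29.2, 40.8, 18.5 and 35.1 in Control libraries (log2 fold change 0.96, adjusted p = 0.209).

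Among single rows, tRNA-Thr-ACY_copy1 was at 9.21, 35.7, 9.69 and 26.2 scaled CPM in EtOH libraries and at 8.97, 9.19, 6.74 and 8.35 in Control libraries. The groups did not overlap, but EtOH replicate 1 exceeded the highest Control library only slightly (log2 fold change 1.27 ± 0.49 SE, adjusted p = 0.118). Without EtOH replicate 2 its log2 fold change was 0.82 (adjusted p = 0.261), and without EtOH replicate 3 it was 1.40 and was called (adjusted p = 0.0474), where 16.5% of all features were called higher. The row tRNA-Thr-ACY__copy7 averaged 39.5 ± 22.5 scaled CPM in EtOH libraries and 18.1 ± 5.31 in Control libraries (SD, n = 4 each, log2 fold change 1.13, adjusted p = 0.156). Its values were 24.8, 63.0, 16.2 and 54.0 in EtOH libraries and 17.4, 20.5, 11.0 and 23.3 in Control libraries.

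The most abundant threonine row, tRNA-Thr-ACA_copy8, was at 257, 236, 332 and 394 scaled CPM in EtOH libraries and at 327, 468, 316 and 251 in Control libraries. The count ratio of tRNA-Thr-ACY_copy1 to this row was 0.0359, 0.152, 0.0292 and 0.0666 in EtOH libraries and 0.0274, 0.0196, 0.0214 and 0.0333 in Control libraries. EtOH replicate 3 lay inside the Control range of this ratio.

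**Figure D4:**
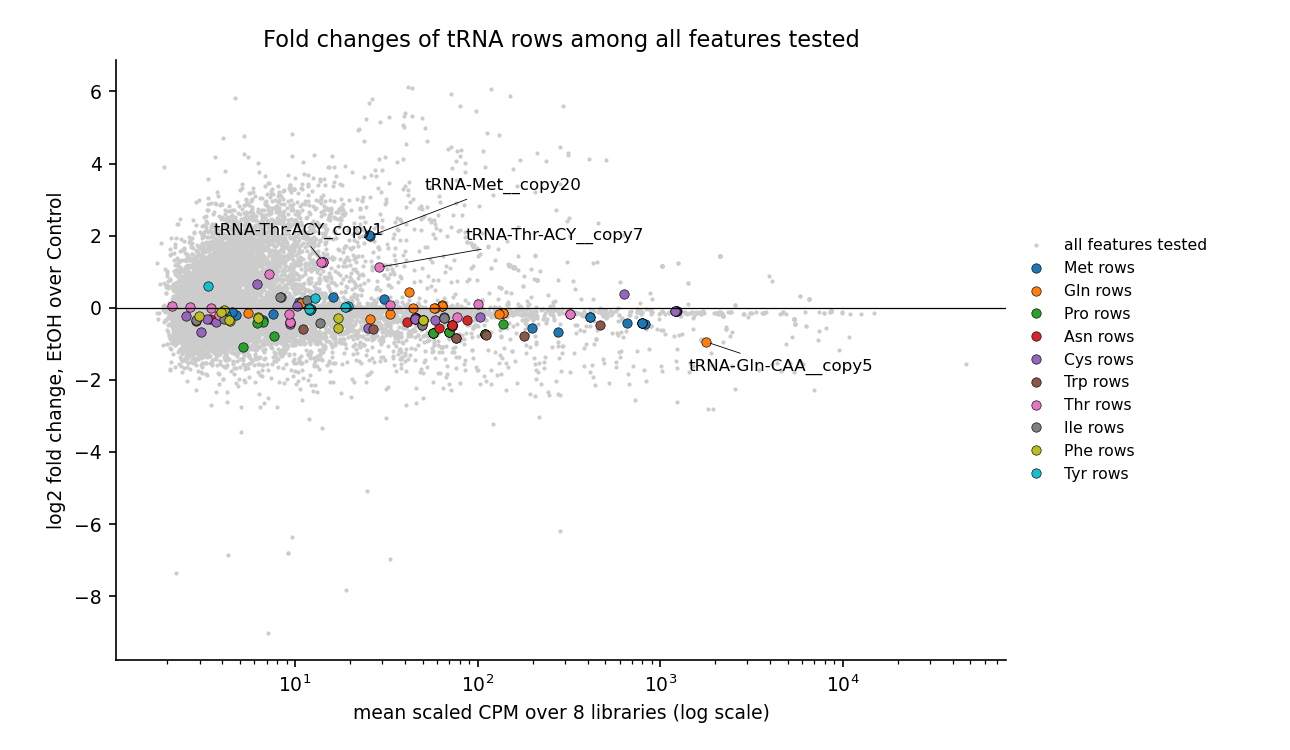
Fitted log2 fold change (EtOH over Control) against mean scaled CPM over 8 libraries (log axis), with all 10234 tested features in grey and the 151 tested rows coloured by amino acid. Most coloured points lie between 0 and -1, with the tRNA-Met__copy20 pair and the Thr-ACY rows above and tRNA-Gln-CAA__copy5 at the right edge of the rows.

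Fragments of cysteine tRNA that begin with a run of guanines are known from human cells to repress translation. Cysteine rows summed to 8844, 5314, 8219 and 14430 CPM in EtOH libraries and to 9337, 9147, 7616 and 7604 CPM in Control libraries. EtOH replicate 4 was above and EtOH replicate 2 below every Control library, while the means were 9201 ± 3808 CPM in EtOH libraries and 8426 ± 946 CPM in Control libraries (SD, n = 4 each). The EtOH mean was 7459 ± 1884 CPM (n = 3) once EtOH replicate 4 was left out. The most abundant row, tRNA-Cys-TGY_copy8, averaged 1188 ± 518 scaled CPM in EtOH libraries and 1270 ± 185 in Control libraries (log2 fold change -0.10, adjusted p = 0.913). Of 29 tested cysteine rows, in 13 near-copy groups, 26 had fold changes below 0. The fold changes of the 29 rows ranged from -0.68 to 0.67. Their median was -0.29, or -0.04 with library size alone. The rows at both ends were rare, with tRNA-Cys-TGY_copy29 at 7.59 ± 4.16 scaled CPM in EtOH libraries and 4.81 ± 1.64 in Control libraries, and tRNA-Cys-TGY_copy19 at 2.30 ± 1.27 in EtOH libraries and 3.83 ± 1.37 in Control libraries.

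Asparagine and tyrosine tRNAs both carry the modified base queuosine at the first anticodon position. Asparagine rows summed to 352, 328, 692 and 452 CPM in EtOH libraries and to 502, 714, 476 and 448 CPM in Control libraries, with EtOH replicates 1 and 2 below the Control range. All 10 tested asparagine rows, in 6 near-copy groups, had fold changes below 0, with a median of -0.49. That median was -0.22 with library size alone and -0.09 in a fit of tRNA features alone. The lowest adjusted p was 0.415, in tRNA-Asn-AAC_copy17. The most abundant, tRNA-Asn-AAC_copy15, averaged 77.1 ± 26.4 scaled CPM in EtOH libraries and 97.8 ± 23.9 in Control libraries (SD, n = 4 each, log2 fold change -0.34).

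Tyrosine rows summed to 99.4, 138, 152 and 154 CPM in EtOH libraries and to 102, 164, 103 and 81.2 CPM in Control libraries. Of the 10 tested tyrosine rows 5 had fold changes above 0 and 5 below, and the median was close to 0. The largest, tRNA-Tyr-TAC_copy7, averaged 4.05 ± 1.57 scaled CPM in EtOH libraries and 2.64 ± 0.887 in Control libraries (SD, n = 4 each, log2 fold change 0.61, adjusted p = 0.377). The most abundant, tRNA-Tyr-TAC_copy10, was at 19.9 ± 3.70 scaled CPM in EtOH libraries and 19.1 ± 6.60 in Control libraries (log2 fold change 0.06). The single Tyr-TAT row held 2, 0, 9 and 2 counts in EtOH libraries and 0, 3, 0 and 2 counts in Control libraries and was not tested.

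The isoleucine tRNA that reads ATT has its first anticodon base changed to inosine by the deaminase ADAT2/ADAT3. Isoleucine rows summed to 293, 287, 341 and 282 CPM in EtOH libraries and to 349, 391, 268 and 248 CPM in Control libraries, and the EtOH values lay within the Control range. Ile-ATT averaged 286 ± 39.6 scaled CPM in EtOH libraries and 364 ± 101 in Control libraries (log2 fold change -0.35, adjusted p = 0.595). Ile-ATA averaged 46.8 ± 11.1 scaled CPM in EtOH libraries and 45.7 ± 11.1 in Control libraries (SD, n = 4 each, log2 fold change 0.03). The row with the lowest p among isoleucine rows was tRNA-Ile-ATT_copy26, at 41.2 ± 9.45 scaled CPM in EtOH libraries and 57.6 ± 14.8 in Control libraries (adjusted p = 0.438).

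Phenylalanine tRNA is the primer of the mouse retrotransposons called intracisternal A particles. Phenylalanine rows summed to 217, 180, 303 and 252 CPM in EtOH libraries and to 247, 334, 240 and 202 CPM in Control libraries. EtOH replicate 2 was the lowest of all libraries. All 13 tested rows, in 7 near-copy groups, had fold changes below 0, from -0.56 to -0.06. Their median was -0.34, but -0.06 with library size alone and 0.03 in a fit of tRNA features alone. A further 15 distinct rows of the 28 were too rare to test. The most abundant, tRNA-Phe-TTY_copy4, averaged 44.2 ± 13.1 scaled CPM in EtOH libraries and 56.5 ± 14.9 in Control libraries (SD, n = 4 each, adjusted p = 0.618).

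The count table also lists miRNAs, and 1 mouse miRNA of the RefSeq table used here overlaps a tRNA gene of these amino acids. The hairpin of miR-1983 covers the isoleucine tRNA gene n-TItat14 in RefSeq (GRCm38.p6, chr13:21896918-21897049, minus strand). All 94 bases of the gene lie inside the 132-base hairpin, and the mature miRNA takes its first 13 bases from the end of the gene. The sequences are shown because they give an isoleucine tRNA gene letter by letter, with the bases of the tRNA gene in capitals.
miR-1983 hairpin: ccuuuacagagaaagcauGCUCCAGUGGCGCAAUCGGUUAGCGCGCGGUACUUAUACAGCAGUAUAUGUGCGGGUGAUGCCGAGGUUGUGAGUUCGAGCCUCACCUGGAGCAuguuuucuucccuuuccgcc
miR-1983 mature: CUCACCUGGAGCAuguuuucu

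The mature miR-1983 had 0, 2, 2 and 0 counts in EtOH libraries and 2, 14, 3 and 5 counts in Control libraries. It was too rare to be tested. The sums were 4 counts in EtOH libraries and 24 in Control libraries, a CPM ratio of 0.132 (95% exact interval 0.0334 to 0.385, counting error alone). Control replicate 2 gave 14 of the 24 Control counts. Capitals mark the bases shared with the tRNA gene, so reads from either precursor cannot be told apart over that stretch.

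Genes that act on these tRNAs were counted from exon features, and few had enough counts for a test. Of the cytosolic synthetases of the 10 amino acids, the enzymes that load an amino acid onto its tRNA, 12 genes had counts and Wars alone had tested exons. Wars, the tryptophan synthetase, was at 122, 404, 61.3 and 177 CPM over its exons in EtOH libraries and at 23.4, 41.1, 29.2 and 41.3 CPM in Control libraries. Each EtOH library lay above each Control library, and EtOH replicate 2 was the highest. All 12 genes had a higher mean in EtOH libraries and their highest value in EtOH replicate 2, so neither was particular to Wars. Together they summed to 91.98 to 639.5 CPM in EtOH libraries and to 43.38 to 74.57 CPM in Control libraries. A link between Wars and the tryptophan rows was not tested.

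None of the 10 tested Wars exons passed the adjusted threshold in edgeR, although all 10 had an unadjusted p below 0.05 and fold changes above 0, with a median of 2.13 and adjusted p-values from 0.0525 to 0.145. Over all 4600 tested exons the median was 0.70, and 40.1% had an unadjusted p below 0.05. The 10 Wars exons are parts of 1 gene in the same libraries, so they do not count as separate results. Without EtOH replicate 2, the library with 17840 CPM of epididymal markers, the Wars mean in EtOH libraries was 120 ± 57.9 CPM (n = 3), against 33.8 ± 8.91 CPM in Control libraries (n = 4). The median over its exons was then 1.51 and 3 of the 10 were called, where the median of all exons was 0.38 and 4.96% of them were called higher. Mars2, the mitochondrial methionine synthetase, had 1 tested exon with a log2 fold change of -0.27.

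Lists for cleaving, modifying, protecting and repairing tRNA had no tested exon. The cleavage genes summed to 17.3 to 126 CPM in EtOH libraries and to 13.2 to 20.3 CPM in Control libraries. The modification genes summed to 32.8 to 125 CPM in EtOH libraries and to 30.4 to 47.7 CPM in Control libraries. Genes for protection and end repair summed to 12.2 to 105 CPM in EtOH libraries and to 6.66 to 10.8 CPM in Control libraries. The highest value of all 3 lists was that of EtOH replicate 2, whose epididymal markers were also highest, and the part of that library in these sums was not tested.

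The EtOH libraries carry sample identifiers of 2 kinds in their titles, PO_M for replicates 1 and 2 and PO_EM for replicates 3 and 4, with no meaning given. Against all Control libraries, the rows tested with the PO_M libraries alone had a median log2 fold change of -0.67, with 11 above 0 and 143 below. With the PO_EM libraries alone the median was 0.11, with 106 above 0 and 52 below. The medians of all features were -0.21 for PO_M and 0.11 for PO_EM. The proline and tryptophan medians stayed below 0 in both, at -1.07 and -0.97 for PO_M and at -0.31 and -0.57 for PO_EM. Isoleucine did so too, at -0.53 for PO_M and -0.04 for PO_EM. The medians of the other amino acids were below 0 for PO_M and above 0 for PO_EM. Asparagine was at -1.11 and 0.02, and phenylalanine at -0.66 and 0.11. The tRNA-Met__copy25 row stayed above 0 in both, at 1.45 for PO_M (adjusted p = 0.0545) and at 2.47 for PO_EM (adjusted p = 0.0331, where 0.0968% of all features were called higher). The difference between the 2 kinds of EtOH library was not tested.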

How the data were processed

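The small RNA libraries, 4 EtOH and 4 Control, came from sperm RNA extracted with a guanidinium thiocyanate and reducing agent protocol, per the labels. The deposited values are whole-number counts per annotated feature with no normalization by the authors, judged from the values. The submitters' processing notes name cutadapt, an adapter trimmer, without a version. The aligner, genome build, annotation and rule for reads matching several copies were not given in the sources used here. No molecular tags are named in the labels, so intervals cover counting error only.

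Sample titles linked the columns to groups. The whole table was fitted with edgeR 4.0.16 in R 4.3.3: filterByExpr defaults (minimum count 10, minimum total 15) kept 10234 features, with TMM scaling (trimmed mean of M values). Two-sided quasi-likelihood tests of EtOH over Control were adjusted by Benjamini-Hochberg over every feature in the fit, with 0.05 as the threshold. Rows of a tRNA name were summed and the table refitted (9816 features). The fit was tested on simulated data with known changes put in. Those counts were drawn independently for each row and library, so reads shared between copies and an outlying library were not covered. DESeq2 1.42.0 and limma 3.58.1 served as alternatives, beside other scalings, filters and left-out libraries. Amino acid sums were described without a test. Depth was 3116421 to 6805989 counts per library.

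Named rows were, per amino acid, the most abundant and the lowest p in each direction, plus summed tRNA names. The rows tRNA-Met__copy15, tRNA-Met__copy20, tRNA-Gln-CAA_copy7, tRNA-Pro-CCA_copy4 and tRNA-Thr-ACY__copy7, the ratios and the near-copy groups were chosen after values were seen. The amino acids and gene lists were chosen with earlier results of these data known. miRNA sequences and tRNA gene positions come from RefSeq (GRCm38.p6), which lists 175 nuclear tRNA genes of the 10 amino acids.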

Additional observations from a re-analysis of the deposited data

Results flagged for a closer look

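In 70 groups of 4 libraries examined, 5 held a library whose distance from the others passed Dixon's 95% limit, where chance flags about 1 in 20 groups. EtOH replicate 2 gave 3 of these. Its glutamine rows summed to 1472 CPM, against 2142 to 2237 CPM in the other EtOH libraries. Its tryptophan rows summed to 977.4 CPM, against 625.2 to 676.2 CPM in the other EtOH libraries. Its tRNA-Trp-TGG_copy3 row was at 566 scaled CPM, against 321.4 to 341.3 in the other EtOH libraries. That row held 1869 of the 3046 tryptophan counts of EtOH replicate 2, so the row and the tryptophan sum are not separate flags. EtOH replicate 3 had tRNA-Ile-ATT_copy15 at 67.54 scaled CPM, against 55.42 to 56.48 in the other EtOH libraries. Control replicate 2 had tRNA-Ile-ATA_copy8 at 11.02 scaled CPM, against 6.066 to 6.463 in the other Control libraries. EtOH replicate 2 is also the library with 17840 CPM of epididymal epithelial markers, and the part of those cells in its tRNA values was not tested.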

How the results depend on the processing

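No row passed the threshold with median-of-ratios scaling, library size alone, a mean count of at least 10 or identical rows collapsed. The count of rows called was 5 with DESeq2 (all higher, against 13.5% of all features) and 2 with voom (4.06%), no filter (0.169%), a fit of tRNA features alone (0.423%) and the PO_EM libraries alone (0.0968%), again all higher. At an adjusted p below 0.1 it was 2, with the share of all features at that limit not counted. At an unadjusted p below 0.05 it was 8 (6 higher, 2 lower), against 17.9% of all features as higher and 9.15% as lower. With the PO_M libraries alone it was 1, tRNA-Pro-CCA_copy4, which was lower, where 2.69% of features were called lower and 16.2% higher. Leaving out 1 library gave 0 to 6 rows, the 6 (5 higher, 1 lower) without EtOH replicate 3, where 16.5% of features were called higher and 3.63% lower. For summed tRNA names, leaving out 1 library gave 0 to 1, the 1 without EtOH replicate 3 (higher, against 18.8% of features), and DESeq2 called 1 (higher, against 14.7%). Summed levels of an amino acid moved by less than the replicate SD under every alternative run; the log2 ratio of group means ranged from -0.43 to 0.00 for methionine and from -0.18 to 0.32 for cysteine when 1 library was left out.

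Of 25 named rows, 14 kept their sign in all 18 alternatives. The other 11 had small fold changes, and the cause of their change of sign was not tested. With tRNA features alone the log2 fold change was 0.042 for tRNA-Asn-AAC_copy15, 0.20 for tRNA-Cys-TGY_copy8, 0.22 for tRNA-Thr-ACA_copy8, 0.038 for tRNA-Thr-ACA_copy13, 0.12 for tRNA-Ile-ATT_copy15, 0.022 for tRNA-Phe-TTY_copy4 and 0.35 for tRNA-Tyr-TAC_copy9. With library size alone it was 0.15 for tRNA-Cys-TGY_copy8, 0.12 for tRNA-Thr-ACA_copy8, 0.0076 for tRNA-Ile-ATT_copy15 and 0.24 for tRNA-Tyr-TAC_copy9. For tRNA-Cys-TGY_copy8 it was 0.045 with voom and 0.028 with no filter. For tRNA-Tyr-TAC_copy9 it was 0.059 with median-of-ratios scaling, 0.058 with DESeq2 and 0.052 with no filter, and for tRNA-Tyr-TAC_copy10 it was -0.066 with a mean count of at least 10. With the PO_EM libraries alone it was 0.064 for tRNA-Met-i_copy5, 0.17 for tRNA-Asn-AAC_copy15, 0.32 for tRNA-Cys-TGY_copy8, 0.24 for tRNA-Thr-ACA_copy8, 0.11 for tRNA-Phe-TTY_copy4 and 0.30 for tRNA-Tyr-TAC_copy9. With the PO_M libraries alone it was -0.63 for tRNA-Gln-CAA_copy4, -0.13 for tRNA-Ile-ATA_copy8 and -0.36 for tRNA-Tyr-TAC_copy10. Leaving out 1 library gave ranges across 0 of -0.23 to 0.77 for tRNA-Gln-CAA_copy4, -0.38 to 0.10 for tRNA-Cys-TGY_copy8, -0.33 to 0.11 for tRNA-Thr-ACA_copy8, -0.14 to 0.36 for tRNA-Tyr-TAC_copy10 and -0.25 to 0.27 for tRNA-Tyr-TAC_copy9.

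No paired analysis was possible because the labels give no replicate numbers, and those used here follow accession order. The alternative that sums 1 row per near-copy group was chosen after seeing the data. Depth limits the 78 rows that were not tested, each with at most 96 counts over the 8 libraries.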
